A study of Mus musculus with 6 samples.

Results

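The dual-specificity MAP kinase phosphatases described here are 10 genes, Dusp1, Dusp2, Dusp4, Dusp5, Dusp6, Dusp7, Dusp8, Dusp10, Dusp14 and Dusp16, of 46603 genes in the count tables. They were picked by gene symbol, and the pick was made with values of these libraries in view, since a clear rise of Dusp2 in the knockout libraries was already known. The DKO to WT differences of these 10 genes are therefore given as a description, with each library's value and no p-value. Whether a gene passed the threshold over all genes is stated for orientation and supports nothing, since Dusp2 was chosen for its difference. The libraries were made from enamel organ (EO) cells of the lower incisors of C57BL/6 mice. The enamel organ is the dental epithelium that holds the ameloblasts, the cells that lay down and then harden the enamel. There were 3 DKO libraries, with the genotype Stim1/2 Knock out (replicates 1, 3 and 4), and 3 WT libraries (replicates 1, 2 and 3), with no treatment in either group. STIM1 and STIM2 are sensors of calcium in the endoplasmic reticulum that let calcium in through ORAI channels once that store runs low. The sources used here do not give the promoter or Cre line behind the knockout, the age or sex of the mice, or whether a library is 1 animal or a pool.

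MAP kinases are switched on by phosphorylation of a threonine and a tyrosine in their activation loop, and dual-specificity phosphatases switch them off by removing both phosphates. Many of these phosphatases are themselves transcribed in response to the kinases that they silence, which makes them feedback inhibitors of the pathway. Dusp1, Dusp2, Dusp4 and Dusp5 encode nuclear, inducible enzymes, Dusp6 and Dusp7 encode cytoplasmic enzymes that prefer ERK, and Dusp8, Dusp10 and Dusp16 encode enzymes that prefer the stress kinases JNK and p38. Dusp14 encodes a small atypical enzyme without the N-terminal domain with which the others dock on MAP kinases. In the tooth, growth factor signalling through ERK is known for its part in the growth and differentiation of the dental epithelium.

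Total counts ran from 18609759 to 21196538 in the DKO libraries and from 21127654 to 22829411 in the WT libraries. The targeted genes followed the labels. Stim1 averaged 125 ± 18.1 counts per 1000000 (CPM) in DKO and 422 ± 65.1 CPM in WT, and Stim2 averaged 122 ± 15.8 CPM in DKO and 261 ± 42.6 CPM in WT (SD, n = 3 each), both called lower. The labelled tissue matched its dental epithelium markers, with Amelx, the gene of the main enamel matrix protein, at 43986 to 81133 CPM in DKO and 28849 to 63668 CPM in WT. Of 13 dental epithelium markers, 6 had a log2 fold change above 0 and 7 below. Among them edgeR called 1, lower in DKO, 6 had an unadjusted p below 0.05, DESeq2 called 4 and limma 0. Xist, which is transcribed from the inactive X chromosome of females, was high in DKO replicate 1 and WT replicates 1 and 2 and at most 1.22 CPM in the other libraries, so both groups mixed sexes. Xist-high and Xist-low libraries thus came from different animals, but the labels do not say that all replicates did. The p-values therefore cover the spread between libraries, part of which may be technical. A gene is called here where its Benjamini-Hochberg adjusted p from edgeR's quasi-likelihood test was below 0.05 over 14721 tested genes. Of these, 18.0% had an unadjusted p below 0.05 in that test, and DESeq2 called 826 of 14948 genes. Counts for lists of genes are to be read beside these shares.

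The promoters are shown first, because the genes of this family are known to be switched on by transcription factors downstream of MAP kinases, calcium and cAMP. RefSeq start sites on GRCm38.p6 matched 9 of the 10 genes, all but Dusp4. Those printed are the 3 genes whose DKO libraries all lay above the WT libraries, Dusp2, Dusp6 and Dusp5, and the pair with a complete cAMP response element, Dusp1 and Dusp8. Each run is the 250 bases before the RefSeq start, 5′ to 3′ on the strand of the gene. Capitals mark the letters of a searched motif. Dusp2 is from chr2:127335909-127336158 on the plus strand, Dusp6 from chr10:99262981-99263230 on the plus strand, and Dusp5 from chr19:53528895-53529144 on the plus strand. Dusp1 is from chr17:26508473-26508722 and Dusp8 from chr7:142095285-142095534, both on the minus strand. The RefSeq start is the gene start of the deposited tables for Dusp2 and Dusp6, and lies 36 bases inside the deposited gene for Dusp5, 47 for Dusp1 and 559 for Dusp8.
Dusp2: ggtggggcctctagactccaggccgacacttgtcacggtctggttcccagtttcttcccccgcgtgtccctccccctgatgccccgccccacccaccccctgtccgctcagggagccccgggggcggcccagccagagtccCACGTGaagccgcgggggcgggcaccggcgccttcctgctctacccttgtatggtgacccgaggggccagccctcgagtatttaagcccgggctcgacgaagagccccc
Dusp6: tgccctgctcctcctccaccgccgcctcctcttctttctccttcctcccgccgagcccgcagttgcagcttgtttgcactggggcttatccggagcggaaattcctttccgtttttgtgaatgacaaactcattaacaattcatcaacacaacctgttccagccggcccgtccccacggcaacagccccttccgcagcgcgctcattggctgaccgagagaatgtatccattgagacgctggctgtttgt
Dusp5: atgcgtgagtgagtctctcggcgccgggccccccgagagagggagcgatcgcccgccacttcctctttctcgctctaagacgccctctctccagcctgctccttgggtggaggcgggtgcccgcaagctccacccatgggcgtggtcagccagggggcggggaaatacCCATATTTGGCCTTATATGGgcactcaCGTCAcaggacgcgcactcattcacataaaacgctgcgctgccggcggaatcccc
Dusp1: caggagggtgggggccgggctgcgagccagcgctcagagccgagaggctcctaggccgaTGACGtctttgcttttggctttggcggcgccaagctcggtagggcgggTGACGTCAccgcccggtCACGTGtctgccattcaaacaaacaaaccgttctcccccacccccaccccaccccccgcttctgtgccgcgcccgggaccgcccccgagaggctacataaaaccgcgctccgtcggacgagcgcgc
Dusp8: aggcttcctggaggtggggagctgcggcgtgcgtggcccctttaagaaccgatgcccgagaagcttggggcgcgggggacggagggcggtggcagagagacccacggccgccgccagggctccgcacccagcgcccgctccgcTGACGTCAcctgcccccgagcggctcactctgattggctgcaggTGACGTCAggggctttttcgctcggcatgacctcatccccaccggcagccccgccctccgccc

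Motifs were searched on both strands of windows of 300 bases, from 250 before to 50 after the start. The cAMP response element TGACGTCA, which CREB proteins bind, was in the windows of Dusp8 (2 times) and Dusp1 (1 time), and in 1.79% of 32851 windows of all genes. Its core TGACG, which every complete element also holds, was in 5 of the 9 windows, those of Dusp1, Dusp2, Dusp5, Dusp8 and Dusp16, and in 20.8% of all windows. In Dusp2 that core lies at bases 6 to 10 after the start, outside the printed run. The E-box CACGTG was in the windows of Dusp2, from base -109 to -104, and Dusp1, and in 7.15% of all windows. The CArG box of the serum response element, which SRF binds, was in the Dusp5 window 2 times side by side, from base -82 to -63, and in 1.63% of all windows. No match to AP-1 (TGANTCA, in 7.81% of all windows), the NFAT core (GGAAAA, 23.4%), EGR (GCGTGGGCG, 0.612%), ETS (CCGGAAG, 8.86%) or the TATA box (TATAAA, 13.6%) was in any of the 9 windows. All 9 windows had a GC content above the median of all windows, 52.7%, from 57.3% in Dusp6 to 78.7% in Dusp7.

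All 10 genes passed the filter on low counts, and 2 of them, Dusp2 and Dusp6, were called higher in DKO. None was called lower by edgeR, by DESeq2 or by limma on FPKM. Over all tested genes 153 were called (1.04%), 108 of them higher in DKO (0.734%) and 45 lower (0.306%). With a library left out the number called ran from 21 to 335. Because a DKO to WT value entered the choice of the genes, nothing is read from their count against these shares. In 3 genes, Dusp2, Dusp5 and Dusp6, every DKO library lay above every WT library, and in none did every DKO library lie below, whereas the other 7 overlapped. Over all tested genes 11.4% had every DKO library above every WT library and 11.8% had every DKO library below. The log2 fold change (DKO over WT) was above 0 in 6 genes and below 0 in 4, with a median of 0.21 over the 10 genes and of -0.01 over all tested genes. In RNA of a whole tissue, a change in the number of cells of a type and a change in RNA per cell cannot be told apart.

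**Figure D1:**
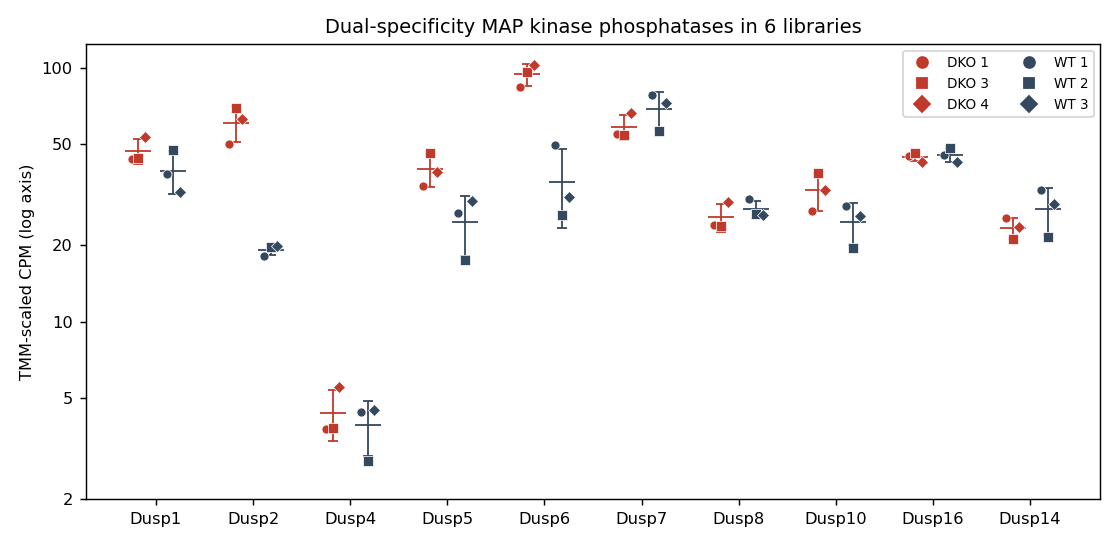
TMM-scaled CPM (log axis) of the 10 phosphatase genes in each of the 3 DKO libraries (red, left) and 3 WT libraries (dark, right), with bars for the mean and SD of each group. Dusp2, Dusp5 and Dusp6 have all DKO points above all WT points, and the other 7 genes overlap.

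Of the nuclear, inducible enzymes, Dusp2 had the largest fold change and Dusp5 the next, while Dusp1 and Dusp4 overlapped between the groups. Dusp2 (ENSMUSG00000027368, chr2:127336159-127338376, plus strand, GRCm38), first known as a phosphatase of activated lymphoid cells, acts on ERK and p38. It had 50.0, 69.6 and 62.9 CPM in DKO replicates 1, 3 and 4, against 18.2, 19.6 and 19.9 CPM in WT replicates 1, 2 and 3. The lowest DKO library was far above the highest WT library, and the WT libraries were nearly equal, with a coefficient of variation of 16.3% in DKO and 4.91% in WT. These values rest on 997, 1365 and 1175 counts in DKO and 428, 405 and 457 counts in WT. The difference came to 3.16-fold, a log2 fold change of 1.66 ± 0.13 (SE). Under 17 processing alternatives the log2 fold change of Dusp2 lay between 1.55 and 1.79, which describes the value that chose it. Among the Xist-high libraries it had 50.0 CPM in DKO replicate 1, against 18.2 and 19.6 CPM in WT replicates 1 and 2. Among the Xist-low libraries it had 69.6 and 62.9 CPM in DKO replicates 3 and 4, against 19.9 CPM in WT replicate 3.

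Since Dusp2 is a leukocyte gene in other tissues, markers of blood cells are set beside it. All 12 tested leukocyte markers had a log2 fold change above 0, with a median of 0.44. Their list of 16 summed to 315 to 480 CPM in the DKO libraries and to 218 to 326 CPM in the WT libraries, ranges that overlap. None of the 12 was called by edgeR or by limma on FPKM, and 6 had an unadjusted p below 0.05. DESeq2 called 3, the macrophage genes Adgre1, C1qb and Lyz2, named after their values were seen. Over all tested genes 18.0% had an unadjusted p below 0.05, and DESeq2 called 826 of 14948. The macrophage marker Csf1r had 29.1, 24.3 and 33.0 CPM in DKO, against 21.5, 18.2 and 25.4 CPM in WT. Lymphocyte markers were near 0, with 10 of 13 below 1 CPM in every library and a list sum of 4.48 to 7.49 CPM in DKO and 4.31 to 8.37 CPM in WT. Cd3e, the T cell receptor subunit, was at 0 in DKO replicate 4 and at most 0.0872 CPM elsewhere. The 10 endothelium markers also had log2 fold changes above 0, with a median of 0.43, no edgeR call, 4 unadjusted p below 0.05, 2 DESeq2 calls and 0 limma calls. Endothelium markers summed to 406 to 441 CPM in DKO and 273 to 352 CPM in WT. Oral keratinocyte markers moved the other way, summing to 67.7 to 119 CPM in DKO and 256 to 449 CPM in WT, with Krt6a called lower. All 6 tested had log2 fold changes below 0, with a median of -2.08 and 5 unadjusted p below 0.05. DESeq2 called 3 of them and limma on filtered FPKM 1. All 11 mesenchyme markers had log2 fold changes above 0, with a median of 0.33, 1 unadjusted p below 0.05, 1 call by DESeq2 and 0 by edgeR and limma. They summed to 10456 to 12986 CPM in DKO and 6722 to 11096 CPM in WT, ranges that overlap. All 8 tested neutrophil markers had log2 fold changes below 0, with a median of -1.36. They summed to 10.7 to 23.9 CPM in DKO, inside the WT range of 2.55 to 81.0 CPM. Of 8 skeletal muscle markers 7 were below 0, with a median of -0.83. Those summed to 57.9 to 168 CPM in DKO and 75.9 to 321 CPM in WT, ranges that overlap. No marker of neutrophils, skeletal muscle or nerve was called by edgeR, DESeq2 or limma, and of these 1 nerve marker had an unadjusted p below 0.05. The part of these cells in the values of Dusp2 and the other phosphatases was not tested.

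Dusp5 (ENSMUSG00000034765, chr19:53529109-53542431, plus strand) encodes a nuclear phosphatase specific for ERK. It had 34.3, 46.1 and 39.1 CPM in DKO replicates 1, 3 and 4, against 26.7, 17.4 and 29.9 CPM in WT replicates 1, 2 and 3. The groups did not overlap, but the lowest DKO and the highest WT library were close. The log2 fold change of 0.69 ± 0.20 (SE) was not called, and it was called in 2 of 17 alternatives, edgeR without a filter on low counts and DESeq2. The library kit carries no strand information, and 547 exon bases of Dusp5 are shared with the antisense gene AC137853.2, so reads of the pair cannot be told apart there.

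Dusp1 (ENSMUSG00000024190, chr17:26505590-26508519, minus strand), an immediate early gene whose enzyme acts on p38, JNK and ERK, had 43.6, 44.3 and 53.3 CPM in DKO replicates 1, 3 and 4, against 38.4, 47.6 and 32.3 CPM in WT replicates 1, 2 and 3. WT replicate 2 lay above both DKO replicates 1 and 3, and the log2 fold change was 0.26 ± 0.15 (SE). The tissue dissociation response, of which Dusp1 is often counted a part, was read from 10 heat shock and early response genes. Of these, edgeR called 0, with 3 unadjusted p below 0.05, while DESeq2 called 1 and limma 0. Log2 fold changes were below 0 in 8 of the 10, with a median of -0.17. Their list summed to 1446 to 1723 CPM in DKO and 1721 to 2031 CPM in WT, ranges that only just overlap. The part of this response in the values of Dusp1 was not tested. Dusp4 (ENSMUSG00000031530, chr8:34807297-34819894, plus strand), a nuclear enzyme close to Dusp1 in sequence, was rare. It had 3.76, 3.82 and 5.51 CPM in DKO, against 4.41, 2.81 and 4.49 CPM in WT, from 58 to 104 counts a library. Its log2 fold change of 0.16 ± 0.25 (SE) was smaller than its error and had the opposite sign in 3 of 17 alternatives.

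The cytoplasmic pair split. Dusp6 (ENSMUSG00000019960, chr10:99263231-99267488, plus strand), the best known feedback phosphatase of ERK and a widely used readout of growth factor signalling, was higher in DKO, whereas Dusp7 was not called. Dusp6 had 83.9, 96.1 and 103 CPM in DKO replicates 1, 3 and 4, against 49.7, 26.4 and 30.9 CPM in WT replicates 1, 2 and 3. All DKO libraries were close to each other and above all WT libraries, of which WT replicate 1 was the highest, with a coefficient of variation of 10.1% in DKO and 34.7% in WT. The difference was 2.64-fold, a log2 fold change of 1.40 ± 0.22 (SE). Among the Xist-high libraries the values were 83.9 CPM in DKO, against 49.7 and 26.4 CPM in WT, and among the Xist-low libraries 96.1 and 103 CPM in DKO, against 30.9 CPM in WT. The direction held under all 17 alternatives, at log2 fold changes of 1.19 to 1.72, but Dusp6 was called in 9 of them. It was not called without DKO replicate 1, 3 or 4, without WT replicate 3, in the fit that adjusts for Xist, or by limma on FPKM.

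Dusp7 (ENSMUSG00000053716, chr9:106368632-106375724, plus strand), the relative of Dusp6 that also prefers ERK, had 55.1, 54.3 and 66.5 CPM in DKO, against 78.4, 56.2 and 72.6 CPM in WT. DKO replicate 4 lay above WT replicate 2, so the groups overlapped, and the log2 fold change was -0.24 ± 0.14 (SE).

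**Figure D2:**
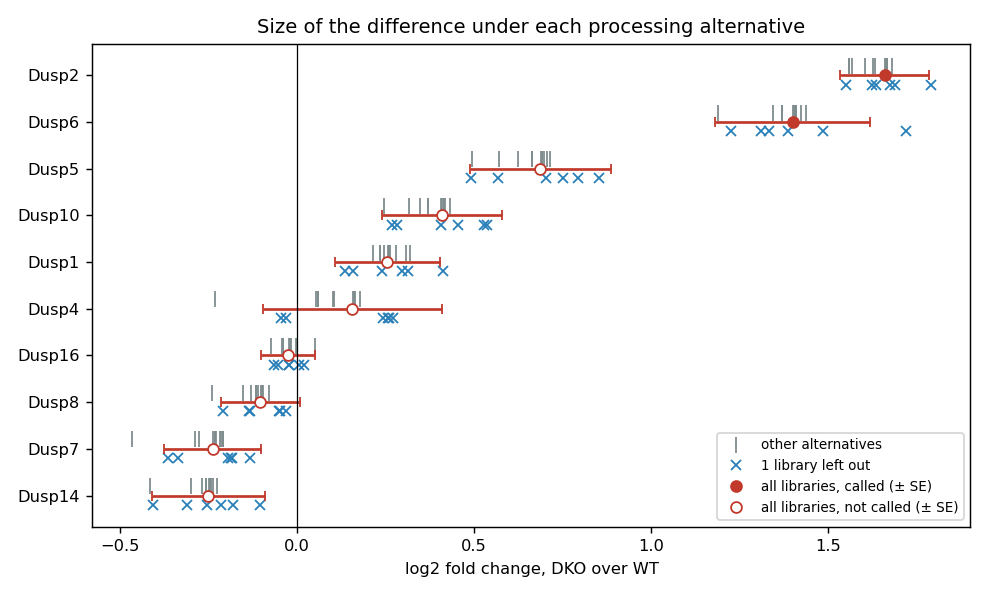
Log2 fold change (DKO over WT) of each gene with all 6 libraries (circles with SE, filled where called), with 1 library left out (crosses) and under the other alternatives (ticks). Dusp2 stays between 1.55 and 1.79 and Dusp6 between 1.19 and 1.72, while Dusp4 and Dusp16 fall on both sides of 0.

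The 3 enzymes that prefer JNK and p38 overlapped between DKO and WT, and none was called under any alternative. Dusp8 (ENSMUSG00000037887, chr7:142079490-142095843, minus strand) had 24.1, 23.9 and 29.6 CPM in DKO, against 30.3, 26.6 and 26.4 CPM in WT, a log2 fold change of -0.10 ± 0.11 (SE). It shares 66 exon bases with the antisense gene Gm32786, as Dusp1 shares 11 with Ergic1. Dusp10 (ENSMUSG00000039384, chr1:184013302-184075636, plus strand) had 27.2, 38.4 and 33.1 CPM in DKO, against 28.5, 19.6 and 26.1 CPM in WT. Only DKO replicate 1 lay within the WT range, and the log2 fold change was 0.41 ± 0.17 (SE), between 0.25 and 0.54 under the alternatives. Dusp16 (ENSMUSG00000030203, chr6:134715468-134792625, minus strand) hardly varied, with a coefficient of variation of 4.03% in DKO and 6.31% in WT. It had 44.8, 46.3 and 42.7 CPM in DKO, against 45.4, 48.3 and 42.5 CPM in WT, with a log2 fold change of -0.02 ± 0.08 (SE). Its sign was opposite in 4 of 17 alternatives. Dusp14 (ENSMUSG00000018648, chr11:84048041-84069261, minus strand), the atypical enzyme, had 25.6, 21.1 and 23.6 CPM in DKO, against 33.0, 21.5 and 29.1 CPM in WT. The groups overlapped at WT replicate 2, and the log2 fold change was -0.25 ± 0.16 (SE).

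Levels of different genes were compared per transcript length, in the deposited FPKM (fragments per kilobase, scaled by library). In DKO, Dusp2 was the most abundant of the 10 genes at 38.7 ± 5.36 FPKM, followed by Dusp6 at 32.5 ± 3.01 FPKM and Dusp1 at 23.8 ± 2.85 FPKM. In WT, Dusp7 led at 21.9 ± 4.75 FPKM, then Dusp14 at 21.4 ± 5.41 FPKM and Dusp1 at 20.2 ± 3.74 FPKM, followed by Dusp2 at 12.4 ± 0.580 FPKM and Dusp6 at 12.4 ± 4.38 FPKM (SD, n = 3 each). Below these came, in DKO, Dusp7 at 18.6 FPKM, Dusp14 at 17.4, Dusp5 at 15.7, Dusp10 at 11.4, Dusp16 at 8.41, Dusp8 at 5.86 and Dusp4 at 1.46 FPKM. In WT the rest were Dusp5 at 9.72 FPKM, Dusp16 at 8.65, Dusp10 at 8.61, Dusp8 at 6.43 and Dusp4 at 1.36 FPKM. In DKO 3 of the 9 neighbouring pairs in this order overlapped between their libraries, Dusp2 with Dusp6, Dusp7 with Dusp14, and Dusp14 with Dusp5. In WT 7 of 9 overlapped, and only Dusp1 with Dusp2 and Dusp8 with Dusp4 did not. Dusp4 was the lowest in both groups.

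The 10 genes together summed to 162, 175 and 185 FPKM in DKO replicates 1, 3 and 4, against 138, 107 and 123 FPKM in WT replicates 1, 2 and 3. Without Dusp2 and Dusp6 the sums were 99.6, 99.5 and 109 FPKM in DKO, against 109, 85.9 and 99.6 FPKM in WT, which overlap. Dusp2 made up 22.2 ± 2.24% of the family's FPKM in DKO and 10.2 ± 1.53% in WT, and Dusp6 18.7 ± 0.540% in DKO and 9.90 ± 2.29% in WT. Dusp7 made up 10.7 ± 1.24% in DKO and 17.6 ± 1.84% in WT, and Dusp14 10.1 ± 1.75% in DKO and 17.2 ± 2.42% in WT (SD, n = 3 each). These shares sum to a fixed total, so a larger share of Dusp2 and Dusp6 lowers the others'.

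**Figure D3:**
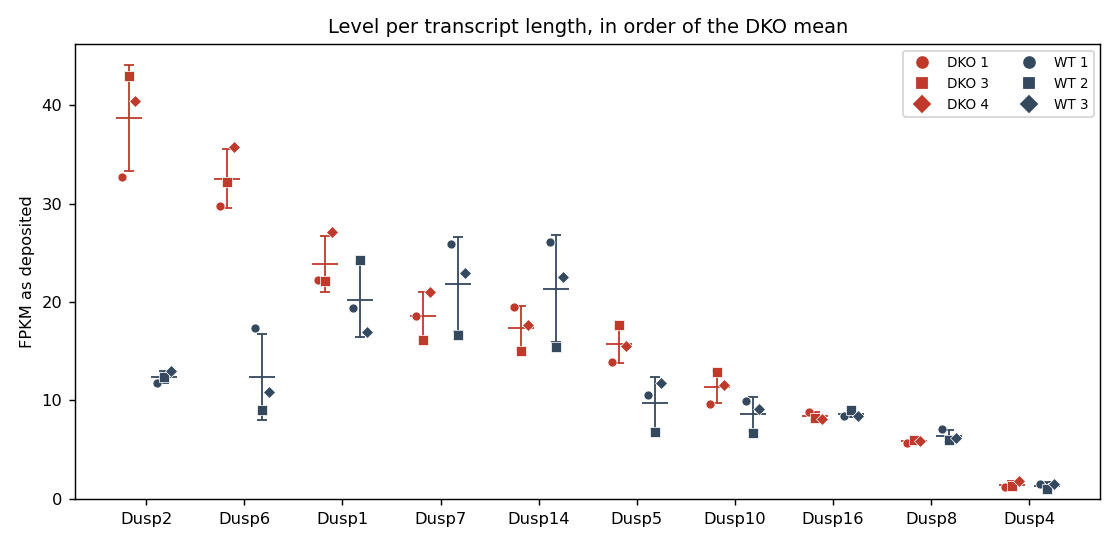
Deposited FPKM of the 10 genes in the 3 DKO libraries (red, left) and 3 WT libraries (dark, right), in order of the DKO mean, with bars for the mean and SD. Dusp2 and Dusp6 lead in DKO at 38.7 and 32.5 FPKM and stand at 12.4 FPKM each in WT, and Dusp4 is below 2 FPKM in every library.

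The genes whose pattern over the 6 libraries was nearest to that of Dusp2, by Euclidean distance of centred log2 CPM among 11808 protein-coding genes, were Plbd1 (distance 0.34), Best1 (0.42), Tnmd (0.42), Tmem215 (0.43) and Stc1 (0.47). Plbd1, a phospholipase B-like gene, had 224, 323 and 282 CPM in DKO, against 76.7, 96.7 and 72.3 CPM in WT. Best1, a calcium-activated anion channel, had 32.1, 46.0 and 36.5 CPM in DKO, against 12.1, 16.4 and 15.2 CPM in WT. Stc1, a secreted glycoprotein hormone, had 20.9, 29.1 and 38.9 CPM in DKO, against 8.23, 9.89 and 9.68 CPM in WT. All 5 were called higher in DKO, which follows from their nearness to a gene chosen for its rise. Among the phosphatases Dusp6 was nearest to Dusp2, at rank 39 with a distance of 0.83, then Dusp5 at rank 184, Dusp10 at rank 600 and Dusp1 at rank 1340, and the other 5 had ranks from 3492 to 10455. The measure is a description over 6 libraries that share the DKO to WT difference.

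The rest of the pathway, together with calcineurin, NFAT and CREB genes, was read from 10 lists with 204 genes in the tables. Among them, 177 were tested. Of these, 4 were called (2.26%, beside 1.04% of all tested genes), Errfi1, Egr3 and Rcan1 higher and Erbb3 lower in DKO. An unadjusted p below 0.05 was found for 50 of the 177 (28.2%), beside 18.0% of all tested genes. DESeq2 called 18 of 178 pathway genes, beside 826 of 14948 genes in all. With a library left out 0 to 10 pathway genes were called, 0 of them without WT replicate 3. The lists were drawn up with earlier results of these libraries known, so these shares are descriptions.

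**Figure D4:**
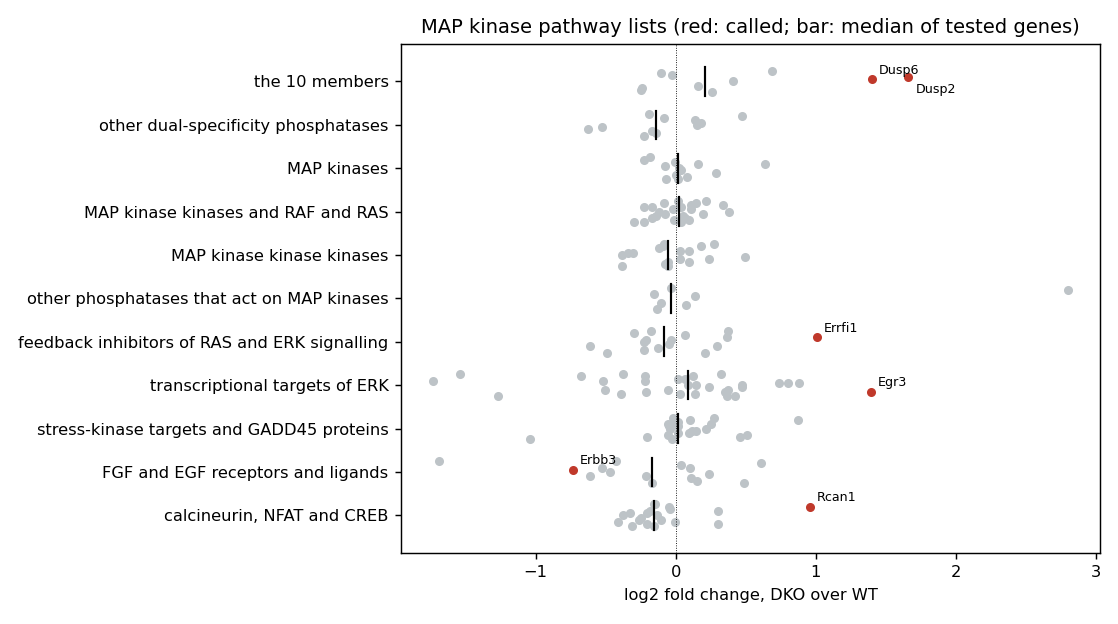
Log2 fold change (DKO over WT) of each tested gene of the 10 phosphatases and of 10 pathway lists. The lists cover the MAP kinase pathway and also calcineurin, NFAT and CREB. Called genes are in red and named, and a bar marks the median of each list. The medians of the lists lie between -0.17 and 0.08, that of the 10 phosphatases at 0.21.

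None of the kinases that the phosphatases act on was called. Of 13 tested MAP kinases, none passed in edgeR, DESeq2 or limma, and 0 had an unadjusted p below 0.05, with a median log2 fold change of 0.02. The ERK gene Mapk3 had a log2 fold change of 0.02 ± 0.08, the JNK genes Mapk8 and Mapk9 had 0.04 ± 0.08 and 0.02 ± 0.08, and the p38 gene Mapk14 had -0.00025 ± 0.07 (SE). Mapk3 had 92.9, 101 and 90.4 CPM in DKO, against 100.1, 86.3 and 94.0 CPM in WT, which overlap. Of 24 tested MAP kinase kinases, RAF and RAS genes none was called by edgeR, DESeq2 or limma, and 5 had an unadjusted p below 0.05. The kinases of ERK, Map2k1 and Map2k2, had log2 fold changes of -0.12 ± 0.06 and -0.01 ± 0.07 (SE). Of 18 tested MAP kinase kinase kinases edgeR and limma called 0 and DESeq2 called 1, Map3k2, with 4 unadjusted p below 0.05.

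No other dual-specificity phosphatase was called. Of 18 in the list, 11 were tested and none passed in edgeR, DESeq2 or limma, while 4 had an unadjusted p below 0.05. Their median log2 fold change was -0.14. Those with the largest differences were Dusp18 at -0.62 ± 0.21 (SE, adjusted p 0.195), Styx, a relative without catalytic activity, at -0.53 ± 0.22 (adjusted p 0.272), and Dusp28 at 0.47 ± 0.18 (adjusted p 0.236). Dusp18 was called in the edgeR fit without WT replicate 2. Dusp3, whose small enzyme acts on ERK and JNK, had 33.4, 32.2 and 34.4 CPM in DKO, against 36.4, 26.7 and 26.8 CPM in WT. Dusp11, an RNA phosphatase by activity, had 86.1, 91.0 and 82.1 CPM in DKO, against 103, 92.3 and 107 CPM in WT, which gave -0.22 ± 0.08 in log2 (SE) at an adjusted p of 0.203. Dusp12, Dusp19, Dusp22, Dusp23, Ptpmt1 and Epm2a had log2 fold changes between -0.19 and 0.18. The other 7, among them Dusp9, the third cytoplasmic phosphatase of ERK, were below 1 CPM in every library and not tested. Dusp9 had at most 0.535 CPM in DKO and 0.349 CPM in WT. Among 7 tested phosphatases of other families that act on MAP kinases edgeR and limma called 0, with 1 unadjusted p below 0.05, and DESeq2 called 1. That gene, named after its values were seen, was Ptprr, a tyrosine phosphatase that docks on ERK and p38. Ptprr had 1.86, 7.39 and 4.87 CPM in DKO, against 0.551, 0.582 and 0.872 CPM in WT, a difference of 2.80 ± 0.52 in log2 (SE, edgeR adjusted p 0.0551).

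Among feedback inhibitors of RAS and ERK signalling, edgeR called 1 of 16 tested genes, with 6 unadjusted p below 0.05, DESeq2 called 2 (with Cbl, named after its values were seen) and limma 1. Errfi1, which binds and inhibits the EGF receptor family, had 229, 274 and 220 CPM in DKO replicates 1, 3 and 4, against 127, 108 and 124 CPM in WT replicates 1, 2 and 3. No libraries overlapped, and the log2 fold change 1.01 ± 0.11 (SE) had an edgeR adjusted p of 0.0125. Errfi1 was called in 15 of 17 alternatives, all but the fit without WT replicate 3 and limma on unfiltered FPKM. The Sprouty genes, classical feedback inhibitors induced by growth factors, were not called, with log2 fold changes of 0.29 ± 0.21 for Spry1, 0.37 ± 0.12 for Spry2 and -0.03 ± 0.18 for Spry4 (SE). Spred1 was at -0.05 ± 0.11 (SE).

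Among 31 tested transcriptional targets of ERK, 1 was called by edgeR, Egr3, a zinc finger early response gene. An unadjusted p below 0.05 was found for 10 of the 31, and DESeq2 called 6 and limma 0. Those 6 were Egr3, Ier2, Phlda1 and Hbegf, higher in DKO, and Myc and Nr4a3, lower in DKO, named after their values were seen. Myc, a growth-promoting transcription factor, had 16.5, 9.63 and 11.8 CPM in DKO, against 41.4, 18.6 and 31.4 CPM in WT, with an edgeR adjusted p of 0.101. Egr3 had 3.96, 3.36 and 4.23 CPM in DKO, against 1.70, 1.11 and 1.57 CPM in WT, which gave 1.39 ± 0.24 in log2 (SE) at an edgeR adjusted p of 0.0455. It was called in 4 of 17 alternatives, and in no fit with a library left out. Egr1 had 58.8, 59.0 and 63.2 CPM in DKO, against 72.5, 36.3 and 36.0 CPM in WT, where WT replicate 1 was above all DKO libraries. Fos had 24.3, 23.8 and 24.0 CPM in DKO, against 18.8, 16.6 and 20.6 CPM in WT, which gave 0.36 ± 0.10 in log2 (SE) at an edgeR adjusted p of 0.135. Of other ERK targets fixed by the rule for named genes, 3 overlapped between groups, with log2 fold changes of 0.02 ± 0.23 for Etv4, 0.24 ± 0.17 for Etv5 and -0.22 ± 0.31 for Nr4a1 (SE). Of 22 tested stress-kinase targets and GADD45 genes edgeR and limma called 0, 6 had an unadjusted p below 0.05, and DESeq2 called 4, Junb, Gadd45b, Gadd45g and Mapkapk3. Like Map3k2 these are named after their values were seen.

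Of 15 tested FGF and EGF receptors and ligands, edgeR called 1, with 5 unadjusted p below 0.05, DESeq2 called 3 (with Erbb2 and Tgfa, named after their values were seen) and limma 0. Erbb3, a receptor of neuregulins, had 28.1, 26.9 and 31.6 CPM in DKO, against 53.2, 42.3 and 48.6 CPM in WT, which gave -0.73 ± 0.11 in log2 (SE) at an edgeR adjusted p of 0.029. It was called in 8 of 17 alternatives, and, of the fits with a library left out, only in that without WT replicate 2. Of 20 tested genes of calcineurin, NFAT and CREB, the calcium-dependent routes to transcription, edgeR, DESeq2 and limma each called 1, and 9 had an unadjusted p below 0.05. Rcan1, an inhibitor of calcineurin that NFAT is known to induce, had 1858, 2259 and 2134 CPM in DKO, against 1134, 1063 and 1020 CPM in WT. The difference in log2 was 0.96 ± 0.12 (SE), with an edgeR adjusted p of 0.0179. Rcan1 was called in 11 of 17 alternatives. The 6 without a call included the fits without DKO replicate 3 or 4 and without WT replicate 3, the Xist adjustment and limma on unfiltered FPKM. In that list 17 of 20 log2 fold changes were below 0, with a median of -0.15.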

How the data were processed

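RNA of 3 DKO and 3 WT libraries of enamel organ cells was prepared from 500 ng with TruSeq RNA v2 and 12 PCR cycles and read as paired ends of 150 nt, per the labels' protocols. The authors deposited whole-number gene counts, not normalized, in 1 table per library. The authors also deposited FPKM per gene in the layout of Cufflinks, per the file headers. The submitters' processing notes name HTSeq, Trimmomatic 0.32, Cufflinks 2.2 and the build GRCm38 without roles, and the aligner, annotation and counting options were not given in the sources used here. Totals of 18609759 to 22829411 counts leave little counting error except for rare genes, and 3 libraries a group set the precision. No columns of samples were left unused (0).

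DKO was compared with WT by edgeR 4.0.16 (R 4.3.3) on the counts with TMM scaling, filterByExpr and no covariate. CPM are TMM-scaled, SEs are of log2 fold changes, and FPKM only order levels between genes. Exon lengths, overlaps and gene positions come from GENCODE vM21 (46005 of 46603 genes covered), and for Dusp1 and Dusp6 positions are those of the deposited tables, which differ from it. The fit was run first on simulated counts drawn independently for each library with no effect of sex, and the outcome is not reported here. Promoter sequences are from RefSeq on GRCm38.p6, and protein sequences were not used here.

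The members and lists were chosen with earlier results of these data known. The text names the 10 members, up to 4 called genes of each pathway list, the 5 genes nearest to Dusp2 with a mean of at least 50 counts, the other dual-specificity phosphatases, and a fixed set of kinases, feedback inhibitors and ERK targets. Of that set, 1 gene is not reported here. Genes named beyond this rule were chosen after their values were seen. Alternatives were other scalings, filters, DESeq2 1.42.0, limma 3.58.1 with trend on log2(FPKM + 1) or log2(FPKM + 0.1) for genes at 1 FPKM in at least 3 libraries or with no filter, a replicate block, a covariate for Xist (above or below 100 CPM), and each library left out.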

Additional observations from a re-analysis of the deposited data

How the results depend on the processing

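Because Dusp2 was chosen for its rise, its calls are no sign of stability, and Dusp6 was called in 9 of 17 alternatives. The count of called members was 1 with the Xist term and in each of the 3 limma fits, and it lay between 1 and 2 with a library left out. Over all genes, 153 calls became 554 with no filter on low counts, 826 with DESeq2, 71 with the Xist term, 77 with limma at either pseudocount and 11 with limma on unfiltered FPKM. With a library left out they ran from 21 to 335, the lowest without DKO replicate 4 and the highest without WT replicate 2, and of the 6 fits only that without DKO replicate 1 stayed within 1.5 times. The 4 called pathway genes became 16, 18, 1, 2, 2 and 0 in the same order of settings, and ran from 0 to 10 with a library left out, the lowest without WT replicate 3. DESeq2 size factors, upper-quartile scaling and total counts changed no member's call and moved the median of all genes to at most 0.06 log2 from 0. With levels averaged over all 6 libraries, 5 of 10 members kept their place in the order when CPM per kilobase of exon replaced FPKM, and with a library left out 7 to 10 did. The causes of these changes were not tested.

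The groups share only the replicate numbers 1 and 3, and the labels do not say that a number pairs samples. Deviations from the group means correlated at 0.21 for replicates 1 and -0.029 for replicates 3 over 12146 genes. Pairs with different numbers ran from -0.279 to 0.289, so the pairing was not established. Replicates 2 and 4 each occur in 1 group only. With the replicate block the DKO to WT difference therefore rests on replicates 1 and 3. The replicate terms also leave very little from which to estimate the spread, so the calls of that fit are only a description. In that fit 328 genes, Dusp2 and Dusp6, and 8 pathway genes were called. Only 2 of the 4 called pathway genes, Errfi1 and Erbb3, were among those 8, while Rcan1 and Egr3 were not called, and the log2 fold changes of Dusp4 and Dusp7 moved to -0.23 and -0.46. Rare genes such as Dusp4 carry counting error besides the spread between libraries.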

Other observations

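Dusp6 had neighbours of its own among the 11808 protein-coding genes compared by pattern. The nearest were Sel1l3 (distance 0.44), Lypd3 (0.49), Egr3 (0.51), Slc52a3 (0.53) and Ube2ql1 (0.53). Egr3, Slc52a3 and Ube2ql1 were called higher in DKO, Egr3 from 23 to 79 counts a library. Nearness to Dusp6 is in large part a shared DKO to WT difference, so calls among its neighbours are no separate result. Lypd3 had 77.4, 101 and 101 CPM in DKO replicates 1, 3 and 4, against 37.7, 25.4 and 37.0 CPM in WT replicates 1, 2 and 3, and was called higher. Sel1l3 had 47.8, 62.6 and 54.4 CPM in DKO, against 33.9, 13.96 and 22.5 CPM in WT, and was not called. These genes were named after their values were seen.

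Several early response and ligand genes missed the threshold in edgeR while DESeq2 called them, and are given as values chosen after the fact. Gadd45g, a growth arrest gene that activates stress kinases, had 33.2, 46.6 and 40.7 CPM in DKO, against 16.7, 24.6 and 24.4 CPM in WT (edgeR adjusted p 0.0695). Hbegf, a ligand of the EGF receptor, had 8.13, 8.20 and 8.88 CPM in DKO, against 4.75, 4.22 and 5.45 CPM in WT (edgeR adjusted p 0.0562). Tgfa, another such ligand, had 17.4, 12.4 and 14.2 CPM in DKO, against 76.1, 22.7 and 42.6 CPM in WT (edgeR adjusted p 0.0944). Nr4a3, a nuclear receptor of the early response, had 2.81, 3.87 and 4.12 CPM in DKO, against 15.1, 8.29 and 7.85 CPM in WT (edgeR adjusted p 0.0609). Members of the early response thus lay on both sides of WT.

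Mapkapk5, a kinase downstream of MAP kinases, was near 0 in the count tables, with at most 0.351 CPM in DKO and 0.636 CPM in WT, but had 27.4 to 29.0 FPKM in DKO and 28.3 to 31.8 FPKM in WT. Its symbol stands on 2 gene IDs, and neither was tested.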
